A study of Homo sapiens with 18 samples.

Results

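The response to 1 hairpin against PPP2R2A, shPPP2R2A-2, was compared between 2 human non-small cell lung cancer lines, A549 and H1299. The measure was a difference of differences on the log2 scale: the change from shcon, the control hairpin, to shPPP2R2A-2 in A549 minus the same change in H1299. A positive value therefore means that a gene's change was more positive in A549, and a negative value that it was more negative there. The comparison used 12 of the 18 libraries of the series, 3 each of A549 shcon, A549 shPPP2R2A-2, H1299 shcon and H1299 shPPP2R2A-2, and the 6 libraries of another hairpin, shPPP2R2A-1, stayed out of it. All cells were cultured in DMEM with fetal bovine serum and carried a hairpin, the controls included, and no drug or other treatment was given in the labels. A549 is derived from a lung adenocarcinoma and H1299 is derived from a lymph node metastasis of a large cell carcinoma. The numbered replicates were separate libraries, and nothing in the labels said whether they came from separate cultures, so the p-values speak only for the variation among the libraries, part of which may be technical. The effect rests on 1 hairpin sequence, so what belongs to the loss of PPP2R2A and what belongs to the hairpin cannot be told apart here.

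PPP2R2A encodes B55α, a regulatory subunit that directs the phosphatase PP2A to its substrates. In dividing cells PP2A with B55 subunits removes phosphates placed by CDK1 and is held inactive during mitosis by the kinase MASTL, known as Greatwall, through ENSA and ARPP19. Genes of the cell cycle are transcribed in waves: E2F factors drive those of DNA replication, while the MuvB complexes, with B-MYB and FOXM1, drive those of mitosis. The genes known as p53 targets include CDKN1A and BTG2, and p21, the product of CDKN1A, lowers both waves because it leaves RB-family proteins unphosphorylated and the repressive DREAM complex assembled. These relations are background and were not measured in the libraries.

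Of 18201 genes tested, 59 were higher in A549 (0.324% of those tested) and 135 were lower (0.742%), 194 in all (1.07%), each past an adjusted p of 0.05 in the quasi-likelihood test of edgeR after Benjamini-Hochberg correction. In all 194, the 9 pairwise changes of A549 did not overlap the 9 of H1299, which held for 8.72% of the genes tested. At an unadjusted p under 0.05 there were 2328 genes. The 135 lower genes held many components of the replication and mitosis machinery, and the 59 higher genes included 4 targets of p53. The A549 change was the larger in size in 56 of the 59 higher and 125 of the 135 lower genes. The genes were picked on the difference between the lines, so these 2 counts are not a separate result. Over all genes tested, the SD of the log2 fold changes was 1.05 in A549 and 0.75 in H1299. All 59 higher genes rose in A549, as did 9.15% of all genes, and 127 of the 135 lower genes fell there, as did 9.29%. In H1299, where 2.4% of all genes passed the threshold, 7 of the 59 rose, 2 fell and 50 did not pass. Of the 135, 10 rose there, 3 fell and 122 did not pass. Median log2 fold changes in A549 and H1299 were 3.01 and 0.23 for the higher genes and -1.56 and -0.06 for the lower ones.

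A few short promoter stretches are shown first. Elements of either wave were more frequent in the promoters of the lower genes than in those of all tested genes. How often they occurred together in the same promoter was not tested. The cell cycle genes homology region, a MuvB element with the letters TTTGAA, was found on either strand in 38.7% of the promoters of 106 lower genes with an entry, against 10.1% of 12324 tested genes and 9.09% of 44 higher genes. A CCAAT box, the letters CCAAT bound by NF-Y, was present in 60.4%, 36.2% and 29.5% of these promoters, respectively. An E2F element, any of TTTCCCGC, TTTGGCGC, TTTGCCGC and TTTCGCGC, was in 20.8%, 5.01% and 0% of them. Each promoter was 250 bases before to 50 bases after the RefSeq start, both strands were searched, matches could overlap, and a promoter counted once for each element. A match is a description of the letters and not evidence of a bound site. The windows below are from RefSeq with build GRCh38.p14, on the strand of the gene and 5′ to 3′, with the element in capitals, and an element on the other strand appears as its reverse complement.
KIF11 homology region, chr10:92593090-92593119, plus strand: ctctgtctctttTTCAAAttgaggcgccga
KIF11 CCAAT box, chr10:92593065-92593094, plus strand: gccagcgcagccATTGGtccggctactctg
PRC1 homology region, chr15:90994538-90994567, minus strand: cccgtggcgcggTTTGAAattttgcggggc
PRC1 CCAAT box, chr15:90994571-90994600, minus strand: cgggacgcgacgCCAATcgcgacgaggctt
ZNF367 E2F element, chr9:96418373-96418402, minus strand: cgaaatgtaacGCGGGAAAagccggggcag
E2F2 E2F element, chr1:23531257-23531286, minus strand: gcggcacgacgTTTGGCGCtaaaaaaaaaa
The 6 windows pair 2 genes of spindle function, whose homology region begins 28 bases (KIF11) and 20 bases (PRC1) before the start and whose CCAAT box begins 53 bases before it in both, with 2 genes that carry E2F letters, at 21 bases in ZNF367 and 42 bases in E2F2. By list, the homology region was in 69.0% of 29 promoters of mitosis genes and in 3.12% of 32 promoters of DNA replication genes, whereas the E2F letters were in 6.9% and 53.1% of them. In 28 promoters of p53 targets, a list whose genes went the other way, the homology region was in 3.57%, the CCAAT box in 50.0% and the E2F letters in 17.9%.

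The libraries held 35743287 to 62337140 counted reads over 57773 genes, the lowest being H1299 shPPP2R2A-2 replicate 3. Line identity markers matched the labels: CDH1, KRT19 and EPCAM were counted in all A549 libraries and were near 0 in H1299, CDKN2A was at 29.3 to 66.4 CPM (counts per 1000000 counted reads) in H1299, and markers of leukocytes and endothelium were near 0 except CD14, at 4.56 to 14.4 CPM in A549, CDH5, at 0.62 to 4.11 CPM there, and KDR, at up to 1.96 CPM in H1299. A single library held reads typical of the other line, called H1299 RNA below. How these reads came into it was not tested. In A549 shPPP2R2A-2 replicate 1, 16 genes that every H1299 library had at 20 CPM or more and A549 libraries nearly lacked were summed at 1.56% of their H1299 level, with all 16 above 0.1%, whereas the other 5 A549 libraries were at 0.00608% to 0.0374%. The share of reads on mitochondrial genes was 0.178%, 0.552% and 0.183% in A549 shcon, 0.465%, 0.393% and 0.381% in A549 shPPP2R2A-2, 0.0826%, 0.0732% and 0.0622% in H1299 shcon and 0.117%, 0.15% and 0.112% in H1299 shPPP2R2A-2. It was higher with the hairpin in every H1299 library and overlapped in A549, and its part in the results was not tested. The median difference over all genes tested was -0.10, and it was 0.01 without A549 shPPP2R2A-2 replicate 1 and 0.04 without A549 shcon replicate 1.

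The number of calls depended strongly on single libraries. Leaving out A549 shcon replicate 3, A549 shPPP2R2A-2 replicate 2 or H1299 shcon replicate 2 left 0 genes past the threshold in either direction by edgeR, with 1758, 1788 and 1983 genes at an unadjusted p under 0.05, so every call named below ended in those 3 fits. Without A549 shPPP2R2A-2 replicate 1, the library that held H1299 RNA, 10 genes were higher and 1 was lower. Of the genes named below, those that still passed in that fit were CEND1, TMEM27, NLRP1, ENSG00000260912, BTG2, SESN1, PYGB and PLK2, and every other named call of a difference ended there. Without A549 shcon replicate 1 the counts were 10 and 3. Without H1299 shcon replicate 1 they were 14 and 36, without H1299 shcon replicate 3 they were 16 and 39, and without H1299 shPPP2R2A-2 replicates 1 and 2 they were 15 and 37 and 15 and 56. Leaving out A549 shPPP2R2A-2 replicate 3 gave 43 and 92, without A549 shcon replicate 2 they were 55 and 219, and without H1299 shPPP2R2A-2 replicate 3 they were 83 and 214. DESeq2 gave 279 and 328. All 194 genes kept the sign of their difference in each of these 12 fits and in DESeq2. That does not test their direction, because they were picked on these same libraries and their pairwise changes did not overlap. Median-ratio scaling raised the higher share of calls from 30.4% to 41.7% with 63 and 88 calls.

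**Figure D1:**
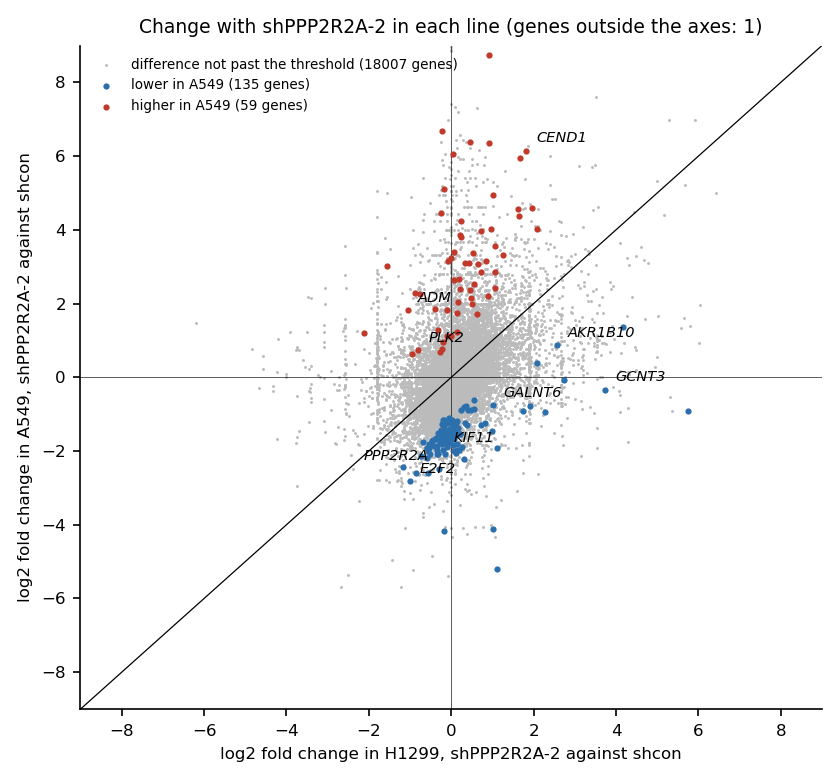
Each point is 1 of the 18201 genes tested, with its log2 fold change with shPPP2R2A-2 in H1299 on the horizontal axis and in A549 on the vertical axis. The diagonal marks equal change. Most of the 59 red and 135 blue genes past the threshold, which were picked on the difference, have a change of larger size in A549.

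The hairpin reduced its target in both lines. PPP2R2A was at 84.2, 48.9 and 86.1 CPM in the A549 shcon libraries 1 to 3 and at 10.7, 13.1 and 15.4 CPM with shPPP2R2A-2, and at 104, 73.4 and 84.7 CPM in H1299 shcon and 18.1, 17.7 and 14.5 CPM with shPPP2R2A-2. All knockdown libraries lay below all control libraries in both lines. The log2 fold change was -2.48 ± 0.25 (SE) in A549 (adjusted p = 4.46e-05) and -2.38 ± 0.24 in H1299 (adjusted p = 7.12e-04), and their difference of -0.10 ± 0.33 did not pass the threshold (adjusted p = 0.962). With these reductions of the target, 1665 genes rose (9.15%) and 1690 fell (9.29%) in A549, while 283 rose (1.55%) and 154 fell (0.846%) in H1299, which is 18.4% and 2.4% of genes in all. The median standard error of a gene's change was 0.30 in A549 and 0.29 in H1299. Between the lines, the changes had a Pearson r of 0.32 and a Spearman rho of 0.41 across the 18201 genes, which are not independent of each other. There were 297 genes past the threshold in both lines in the same direction, of which 166 rose and 131 fell, and 4 in opposite directions.

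Genes of mitosis gave the most negative differences of the main lists. All 35 measured genes of the mitosis list fell in A549, as did 9.29% of all genes, with a median log2 fold change of -1.57. In H1299 none passed the threshold, where 2.4% of all genes did, and the median was -0.16. The difference was negative for 35 of 35, with a median of -1.32 against -0.10 over all genes, and 12 of the 35 (34.3%, against 0.742% of all genes) passed the threshold. These 12 were NUF2, BUB1, KIF11, PRC1, BUB1B, TTK, FOXM1, MKI67, CDK1, KIF23, CENPA and AURKA. The median CPM over the 35 genes was 163, 105 and 106 in A549 shcon and 39.7, 40.5 and 49.3 in A549 shPPP2R2A-2, against 204, 201 and 201 in H1299 shcon and 152, 145 and 192 in H1299 shPPP2R2A-2. The A549 groups did not overlap. All H1299 knockdown libraries also lay below their controls, replicate 3 by the least. The change in H1299 was negative for 32 of the 35 and positive for 3. By edgeR, none of the 35 passed without A549 shPPP2R2A-2 replicate 1 or A549 shcon replicate 1 (nor in the 3 fits with no calls at all), with 30 at an unadjusted p under 0.05 without the former. The counts were 2 to 9 in 5 other fits and 13 and 20 without H1299 shPPP2R2A-2 replicate 3 and A549 shcon replicate 2. The median of the 35 differences stayed between -1.45 and -1.02 under every alternative tried.

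KIF11, the kinesin that pushes the spindle poles apart, was at 175, 101 and 169.8 CPM in A549 shcon and 36.9, 34.9 and 41.9 CPM in A549 shPPP2R2A-2, and at 155, 201 and 212 CPM in H1299 shcon and 179, 168 and 148 CPM in H1299 shPPP2R2A-2. The A549 groups were far apart and the H1299 groups overlapped. Its log2 fold change was -1.97 ± 0.22 in A549 and -0.20 ± 0.21 in H1299, a difference of -1.78 ± 0.30 (adjusted p = 0.0184). BUB1, a kinase of the spindle checkpoint, went from 93.5, 51.4 and 77.9 CPM to 21.8, 16.9 and 21.1 CPM in A549 and was at 184, 211 and 225 CPM and then 204, 167 and 204 CPM in H1299. Every A549 control library was far above every A549 knockdown library, and the H1299 values overlapped. Its difference was -1.78 ± 0.30 (adjusted p = 0.0184). NUF2, a kinetochore subunit that grips microtubules, had a difference of -1.60 ± 0.25 (adjusted p = 0.0174), with -1.61 in A549 and -0.01 in H1299. PRC1, which bundles the microtubules of the central spindle, had a difference of -1.59 ± 0.27 (adjusted p = 0.0184), with -1.60 and -0.01. CCNA2, cyclin A2, which acts in S phase and early mitosis and was listed with the G1 cyclins and CDKs, was the 1 gene of 17 in that list past the threshold, at -1.60 ± 0.32 (adjusted p = 0.0357).

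**Figure D2:**
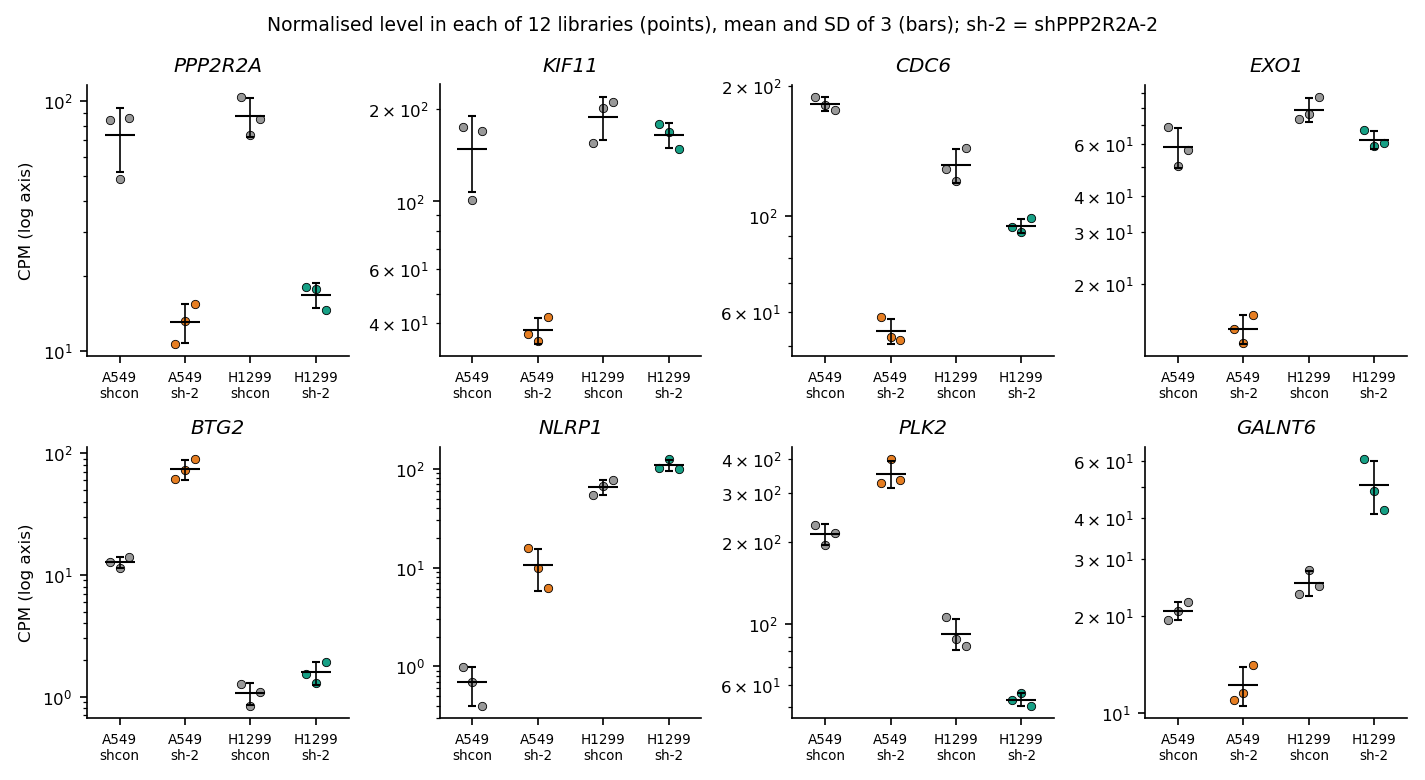
Normalised levels in CPM, on a log axis, of PPP2R2A and 7 genes in the 12 libraries, with points for single libraries and bars for the mean and SD of 3. PPP2R2A is reduced in both lines, KIF11, CDC6 and EXO1 fall far in A549 alone or mainly, BTG2 and NLRP1 rise mostly in A549, and PLK2 and GALNT6 move in opposite directions in the 2 lines.

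Replication genes fell in A549 with the same uniformity. All 38 measured genes of the DNA replication list fell past the threshold there, at a median log2 fold change of -1.36. In H1299, 4 of 38 fell past the threshold, against 0.846% of all genes, and the median was -0.36. The change in H1299 was negative for 34 of the 38 and positive for 4. The median CPM over the 38 genes was 96.4, 86.96 and 103 in H1299 shcon and 71.1, 63.4 and 74.996 in H1299 shPPP2R2A-2. These H1299 groups did not overlap. The difference was negative for all 38, at a median of -1.06, and 12 passed the threshold (31.6%, against 0.742% of all genes): CDC6, POLE, MCM10, RFC5, POLE2, PRIM1, ORC1, DBF4, POLD3, POLA2, GINS3 and MCM2. They load the MCM helicase at origins (ORC1, CDC6, MCM2), fire it (DBF4, MCM10, GINS3), or synthesize DNA (POLE, POLE2, PRIM1, POLA2, POLD3, with the clamp loader RFC5). The 1 member near the background was PCNA, the sliding clamp, at -0.22 ± 0.28, named after its value was seen. None of the 38 passed without A549 shPPP2R2A-2 replicate 1 or A549 shcon replicate 1, with 30 at an unadjusted p under 0.05 in the former fit. The counts were 2 to 8 in 5 other fits, and 14 and 18 without H1299 shPPP2R2A-2 replicate 3 and A549 shcon replicate 2, while the median difference stayed between -1.15 and -0.85.

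CDC6, which loads the helicase, was at 188, 181 and 175 CPM in A549 shcon and 58.4, 52.7 and 51.8 CPM in A549 shPPP2R2A-2, and at 128, 120.3 and 144 CPM in H1299 shcon and 94.1, 91.9 and 98.7 CPM in H1299 shPPP2R2A-2. Both pairs of groups were apart, and the gap was wider in A549. The difference was -1.28 ± 0.20 (adjusted p = 0.0174), from -1.74 ± 0.14 in A549 and -0.46 ± 0.14 in H1299, where it did not pass the threshold (adjusted p = 0.11). MCM10, which activates the helicase, was at 106, 60.97 and 89.1 CPM and 17.2, 17.8 and 21.2 CPM in A549, and at 90.9, 89.2 and 121 CPM and 69.6, 62.5 and 68.1 CPM in H1299. Its knockdown libraries lay below the controls in both lines, by more in A549. The difference was -1.60 ± 0.30 (adjusted p = 0.028). POLE, the catalytic subunit of the leading strand polymerase, gave -1.23 in A549 and -0.07 in H1299, a difference of -1.16 ± 0.20 (adjusted p = 0.0184), and RFC5 gave -1.21 ± 0.23 (adjusted p = 0.028).

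Of 32 measured genes of replication stress and repair, 24 fell in A549, as did 9.29% of all genes. The difference was negative for 30, at a median of -0.99, with medians of -1.23 in A549 and -0.10 in H1299. In all, 7 of the 32 (21.9%, against 0.742% of all genes) passed the threshold, each lower in A549, among them BLM, EME1, EXO1, FANCD2, RAD54L and FANCI. These encode a helicase (BLM), nucleases (EXO1, EME1), Fanconi anemia proteins (FANCD2, FANCI) and a recombination protein (RAD54L). EXO1, which resects broken ends, was at 68.9, 50.6 and 57.1 CPM in A549 shcon and 13.9, 12.5 and 15.7 CPM in A549 shPPP2R2A-2. In H1299 it was at 73.3, 76.03 and 87.1 CPM and 67.2, 59.01 and 60.4 CPM, so that the knockdown libraries were slightly below the controls there and far below in A549. Its difference was -1.73 ± 0.24 (adjusted p = 0.0174). BLM gave -1.76 ± 0.26 (adjusted p = 0.0174), from -2.09 and -0.33. EME1 gave -1.35 ± 0.21 (adjusted p = 0.0174) and FANCD2 gave -1.44 ± 0.24 (adjusted p = 0.0184). The kinases of the checkpoint had smaller differences: CHEK1 had a difference of -0.79, ATM of -0.33 and ATR of -0.21, and none passed, all named after their values were seen. None of the 32 passed without A549 shPPP2R2A-2 replicate 1 or A549 shcon replicate 1, and the counts rose to 11 without A549 shcon replicate 2 or H1299 shPPP2R2A-2 replicate 3. The median difference stayed between -1.06 and -0.75.

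Among 25 genes of the E2F family and nucleotide supply the median difference was -0.60, and 4 passed the threshold, all lower in A549 (16%, against 0.742% of all genes). With 1 library left out the median ran from -0.73 to -0.36, the latter without A549 shcon replicate 1, and none of the 25 passed by edgeR without that library or A549 shPPP2R2A-2 replicate 1 (median -0.41), nor in the 3 fits with no calls at all. E2F2, an activator E2F, was at 20.4, 18.3 and 20.7 CPM in A549 shcon and 3.06, 2.55 and 2.85 CPM with shPPP2R2A-2, and at 37.2, 35.2 and 38.8 CPM and 14.5, 17.2 and 23.7 CPM in H1299. It fell in both lines without overlap, with a log2 fold change of -2.81 ± 0.21 in A549 and -1.01 ± 0.20 in H1299, and the difference was -1.80 ± 0.28 (adjusted p = 0.0174). E2F8, an E2F that represses targets late in S phase, was at 22.9, 10.8 and 19.7 CPM and 3.102, 2.36 and 4.02 CPM in A549. In H1299 it was at 35.1, 39.9 and 48.1 CPM and 38.8, 31.3 and 29.7 CPM, with overlapping groups. The difference was -2.19 ± 0.39 (adjusted p = 0.0272). RRM1, the large subunit of ribonucleotide reductase, gave -1.48 ± 0.30 (adjusted p = 0.0379). Among 18 histone genes, the linker histone H1F0 was the only one past the threshold, at -1.12 ± 0.23 (adjusted p = 0.0354).

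Among 29 subunits and regulators of PP2A itself, 2 regulators belonged to the lower genes (6.9%, against 0.742% of all genes). MASTL, the kinase that keeps PP2A with B55 subunits inactive in mitosis, was at 69.6, 56.4 and 66.7 CPM in A549 shcon and 20.9, 22.2 and 24.5 CPM in A549 shPPP2R2A-2, and at 42.6, 40.9 and 47.8 CPM and 53.9, 39.8 and 39.9 CPM in H1299. The A549 groups were apart and the H1299 groups overlapped. Its difference was -1.54 ± 0.25 (adjusted p = 0.0179). KIAA1524, which encodes CIP2A, an inhibitor of PP2A and MYC stabilizer, gave -1.58 in A549 and -0.06 in H1299, a difference of -1.53 ± 0.31 (adjusted p = 0.0395). The other 27 genes of the list, among them the scaffold, catalytic and other B subunits, did not pass, and the median difference over the 29 was -0.20. That median had no steady sign: it was 0.0061 without A549 shPPP2R2A-2 replicate 1, where 15 of the 29 were positive and MASTL (adjusted p = 0.093) and KIAA1524 (adjusted p = 0.16) no longer passed, -0.03 without A549 shcon replicate 1 and -0.33 without A549 shcon replicate 2.

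**Figure D3:**
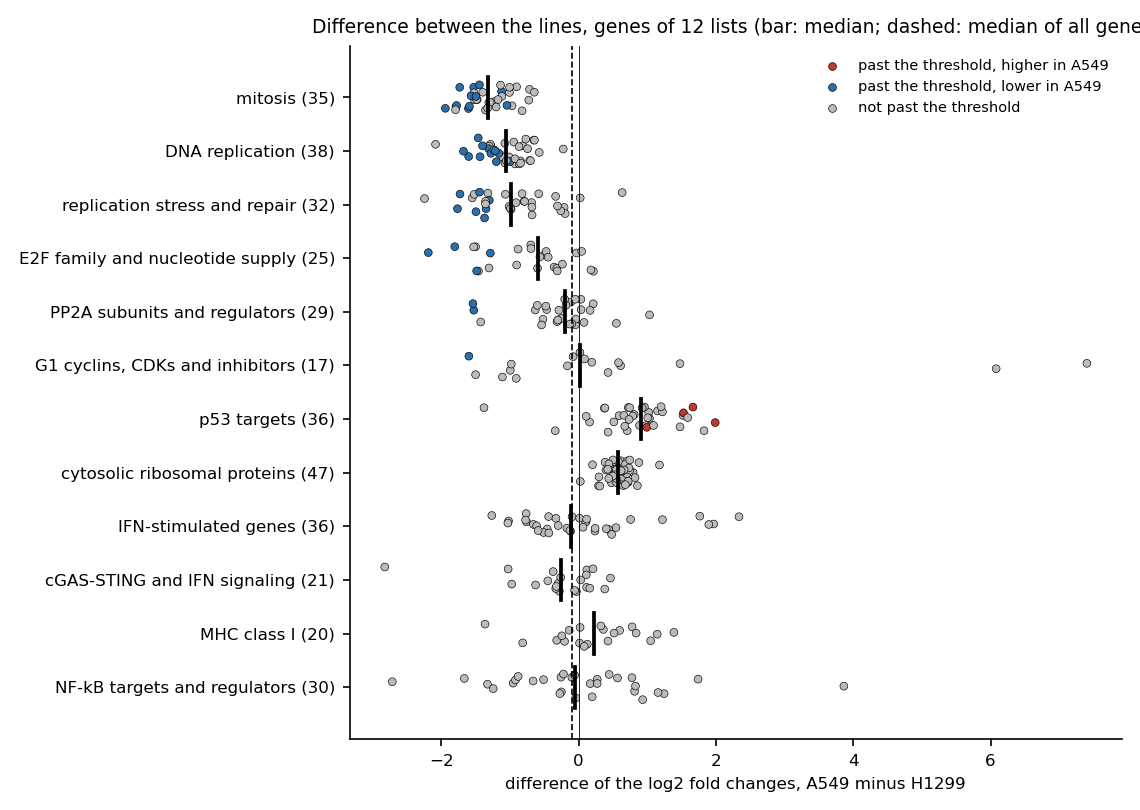
Difference of the log2 fold changes, A549 minus H1299, for every measured gene of 12 lists, with the number of genes in parentheses. Black bars mark the list medians, from -1.32 for mitosis to 0.91 for p53 targets, and the dashed line marks the median of all genes, -0.10.

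The p53 target list went the other way. Of its 36 measured genes 34 had a positive difference, with a median of 0.91 against -0.10 over all genes, and 4 passed the threshold (11.1%, against 0.324% of all genes), all higher in A549. In A549 24 rose and 0 fell, at a median of 0.95, against 9.15% and 9.29% of all genes. In H1299 2 rose and 2 fell, at a median of 0.18, against 1.55% and 0.846% of all genes. DESeq2 called 14 of the 36 higher, and 22 were at an unadjusted p under 0.05 by edgeR. The median stayed between 0.84 and 1.09 under every alternative tried. Without A549 shPPP2R2A-2 replicate 1 it was 1.09, with 3 genes past the threshold. The count was 1 without A549 shcon replicate 1 and 2 without H1299 shcon replicate 3 or H1299 shPPP2R2A-2 replicate 2.

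BTG2, which slows the cell cycle and is also an immediate early gene, was at 12.9, 11.4 and 14.01 CPM in A549 shcon and 61.3, 72.4 and 89.6 CPM in A549 shPPP2R2A-2. In H1299 it was at 1.27, 0.836 and 1.098 CPM and 1.52, 1.28 and 1.93 CPM. The A549 groups were apart and the H1299 groups were at much lower levels and nearly touched. The difference was 1.99 ± 0.32 (adjusted p = 0.0181), and without A549 shPPP2R2A-2 replicate 1 it was 2.24 (adjusted p = 0.0445). SESN1, a sestrin that restrains mTORC1, was at 12.6, 12.2 and 14.9 CPM and 49.2, 62.6 and 65.1 CPM in A549, and at 8.502, 9.96 and 10.998 CPM and 16.8, 13.4 and 11.1 CPM in H1299. Its H1299 knockdown libraries were above the controls, replicate 3 only just. The difference was 1.67 ± 0.29 (adjusted p = 0.0219), and 1.92 without A549 shPPP2R2A-2 replicate 1 (adjusted p = 0.0491). FBXO22, a ubiquitin ligase subunit, gave 0.76 in A549 and -0.23 in H1299, a difference of 1.00 ± 0.22 (adjusted p = 0.0452). CDKN1A, which encodes the CDK inhibitor p21 and was named after its value was seen, was at 149, 108 and 143 CPM in A549 shcon and 762, 985 and 996 CPM in A549 shPPP2R2A-2, and at 58.6, 43.2 and 37.9 CPM and 162, 73.2 and 109 CPM in H1299. It rose in both lines without overlap, by 2.78 (adjusted p = 4.90e-05) and 1.30 (adjusted p = 0.024), and the difference of 1.48 ± 0.37 did not pass the threshold (adjusted p = 0.0873).

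With a mean of 100 counts or more in each line, 3 genes passed the threshold in opposite directions in the 2 lines. PLK2, a polo-like kinase of the p53 target list, was at 229.8, 194 and 215 CPM in A549 shcon and 326, 399.6 and 336 CPM in A549 shPPP2R2A-2, and at 106, 87.8 and 82.98 CPM in H1299 shcon and 52.8, 55.98 and 50.4 CPM in H1299 shPPP2R2A-2. It rose in every A549 and fell in every H1299 knockdown library, with a difference of 1.53 ± 0.22 (adjusted p = 0.0174) and 1.72 without A549 shPPP2R2A-2 replicate 1 (adjusted p = 0.0305). PYGB, the brain form of glycogen phosphorylase, was at 391, 273 and 373 CPM and 422, 551 and 624 CPM in A549, and at 160.1, 155 and 124 CPM and 62.1, 76.8 and 86.4 CPM in H1299. Its A549 groups were close, and its H1299 groups were clearly apart. The difference was 1.58 ± 0.29 (adjusted p = 0.0272). GALNT6, which starts O-linked glycans on proteins, went the opposite way, at 19.4, 20.7 and 22.1 CPM and 10.999, 11.5 and 14.2 CPM in A549 and 23.4, 27.6 and 24.7 CPM and 60.8, 48.6 and 42.2 CPM in H1299. Neither pair of groups overlapped, and the difference was -1.76 ± 0.26 (adjusted p = 0.0174). Without A549 shPPP2R2A-2 replicate 1, PYGB still passed at 1.86 (adjusted p = 0.0491), whereas GALNT6 did not, at -1.56 (adjusted p = 0.093).

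Of the largest positive differences among genes with 100 counts or more in each line, those of CEND1, NLRP1 and TMEM27 belonged to genes at under 3 CPM in A549 controls. CEND1, a gene of neuronal differentiation and cell cycle exit, was at 0.322, 0.077 and 0.166 CPM in A549 shcon and 11.4, 13.6 and 14.9 CPM in A549 shPPP2R2A-2, and at 2.58, 2.28 and 1.57 CPM and 3.16, 7.901 and 11.4 CPM in H1299. It rose in both lines, with no overlap in either, and the difference was 4.34 ± 0.67 (adjusted p = 0.0174; 4.57 without A549 shPPP2R2A-2 replicate 1). NLRP1, an inflammasome sensor, was at 0.987, 0.693 and 0.397 CPM and 15.7, 9.999 and 6.21 CPM in A549, where the library that held H1299 RNA was the highest, and at 53.95, 66.3 and 77.05 CPM and 103, 125 and 99.3 CPM in H1299. All 3 A549 knockdown libraries were above all A549 controls, and the difference was 3.23 ± 0.47 (adjusted p = 0.0174) with that library and 2.97 without it (adjusted p = 0.0305). TMEM27, which encodes collectrin, was at 2.34, 1.04 and 2.67 CPM and 20.7, 22.6 and 20.6 CPM in A549. In H1299 it was at 2.84, 2.01 and 2.04 CPM and 2.51, 2.196 and 2.53 CPM, with overlap. Its difference was 3.33 ± 0.44 (adjusted p = 0.0174). ADM, the vasodilator peptide adrenomedullin and the only gene of 31 in the hypoxia and glycolysis list past the threshold, was at 18.9, 32.6 and 17.3 CPM and 82.7, 96.01 and 64.02 CPM in A549, and at 88.1, 34.2 and 42.3 CPM and 18.2, 22.6 and 38.4 CPM in H1299. It rose in A549 without overlap, and in H1299 the groups overlapped. The difference was 2.88 ± 0.53 (adjusted p = 0.028), and without the library that held H1299 RNA it was 2.98 and did not pass (adjusted p = 0.093).

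RGS2, a regulator that shortens G protein signals, went from 25.4, 38.5 and 27.2 CPM to 165, 157 and 154 CPM in A549 and was at 6.99, 8.15 and 13.9 CPM and 9.27, 10.7 and 13.8 CPM in H1299. The groups were apart in A549 and overlapped in H1299, and the difference was 2.17 ± 0.36 (adjusted p = 0.0184). PCED1B, named by the rule without a role given here, had a difference of 1.91 ± 0.37 (adjusted p = 0.0315), and ENSG00000260912, a gene with a clone-based name only, of 2.42 ± 0.35 (adjusted p = 0.0174). RASGRP3, a RAS exchange factor, rose in both lines, by 4.04 ± 0.33 in A549 and 2.08 ± 0.30 in H1299, and RAB39B, a RAB GTPase, gave 2.05 ± 0.45 (adjusted p = 0.047). TMEM158, known as a RAS-induced gene and listed with the ERK feedback genes, gave 2.52 ± 0.55 (adjusted p = 0.0459). MYL9, a myosin light chain, gave 2.96 ± 0.65 (adjusted p = 0.0484) and MYH15, a myosin heavy chain, 2.13 ± 0.46 (adjusted p = 0.0446). H1299 held more of TMEM158, MYL9 and MYH15 than A549, and without the library with H1299 RNA their differences were 2.52, 2.54 and 2.26. CYR61, a matricellular protein and a target of YAP, gave 1.60 ± 0.33 (adjusted p = 0.0404), with 1.27 in A549 and -0.32 in H1299. Without that library ENSG00000260912 still passed (adjusted p = 0.0491), whereas RGS2, PCED1B, RASGRP3, RAB39B, TMEM158, MYL9, MYH15 and CYR61 did not, at adjusted p from 0.093 to 0.114.

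Among the largest negative differences, a part came from genes that rose in H1299. GCNT3, which branches mucin-type glycans, was at 213, 241 and 348 CPM in A549 shcon and 178, 188 and 268 CPM in A549 shPPP2R2A-2, and at 0.204, 0.57 and 0.424 CPM and 10.4, 3.42 and 2.31 CPM in H1299. A549 was high throughout and its groups overlapped, while the H1299 libraries rose from near 0. The difference was -4.08 ± 0.68 (adjusted p = 0.0184), from -0.34 ± 0.43 in A549 and 3.74 ± 0.53 in H1299. IL6R, the receptor of interleukin-6, was at 16.8, 12.9 and 23.7 CPM and 7.64, 7.86 and 12.8 CPM in A549, and at 3.84, 4.54 and 5.303 CPM and 22.1, 12.8 and 11.1 CPM in H1299. Neither pair of groups overlapped, the A549 decrease did not pass the threshold (adjusted p = 0.0578), and the difference was -2.67 ± 0.45 (adjusted p = 0.0184). ERBB3, the receptor that pairs with EGFR and ERBB2, fell in A549, from 4.96, 12.8 and 11.03 CPM to 2.26, 1.35 and 2.57 CPM, and was at 3.07, 3.34 and 2.54 CPM and 3.34, 4.05 and 3.75 CPM in H1299. Its difference was -2.54 ± 0.50 (adjusted p = 0.0319), the only one past the threshold of 14 genes of EGF ligands and ERBB receptors. AKR1B10, an aldo-keto reductase activated by NRF2, rose in both lines and by more in H1299, at 0.87 and 2.57, a difference of -1.70 ± 0.36 (adjusted p = 0.0434). Its CPM were 2489, 3418 and 3208 and then 5334, 5645 and 5698 in A549, and 0.307, 0.684 and 0.518 and then 4.02, 2.59 and 2.39 in H1299, so that the larger relative change was at a very low level.

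The other negative differences lay mostly in A549. SHCBP1, a protein of the midbody, was at 128, 62.99 and 117 CPM in A549 shcon and 16.6, 24.3 and 37.1 CPM in A549 shPPP2R2A-2, and at 126, 123 and 143 CPM and 168, 136 and 141 CPM in H1299. The A549 groups were apart and the H1299 groups overlapped, and the difference was -2.16 ± 0.41 (adjusted p = 0.0287). ESCO2, which acetylates cohesin in S phase, gave -2.04 ± 0.39 (adjusted p = 0.0307), and ZNF367, a zinc finger factor whose E2F letters are shown above, gave -2.17 ± 0.46 (adjusted p = 0.0407). C11orf82, an open reading frame also known as DDIAS, gave -2.12 ± 0.36 (adjusted p = 0.0184), and DIAPH3, a formin, -2.05 ± 0.45 (adjusted p = 0.0455). IQGAP2, a scaffold protein, gave -2.15 ± 0.46 (adjusted p = 0.0418), ACOX2, a peroxisomal oxidase, -2.45 ± 0.45 (adjusted p = 0.028), and CALML4, a calmodulin-like protein, -2.04 ± 0.34 (adjusted p = 0.0184). The matrix protease MMP14 gave -3.02 ± 0.59 (adjusted p = 0.0315), with -1.91 in A549, where it fell, and 1.11 in H1299. Its A549 fall was at a very low level, from 0.858, 3.48 and 1.23 CPM in shcon to 0.629, 0.428 and 0.417 CPM in shPPP2R2A-2, with shcon replicate 2 the highest. The lysosomal protease CTSL gave -1.42 ± 0.31 (adjusted p = 0.0496).

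**Figure D4:**
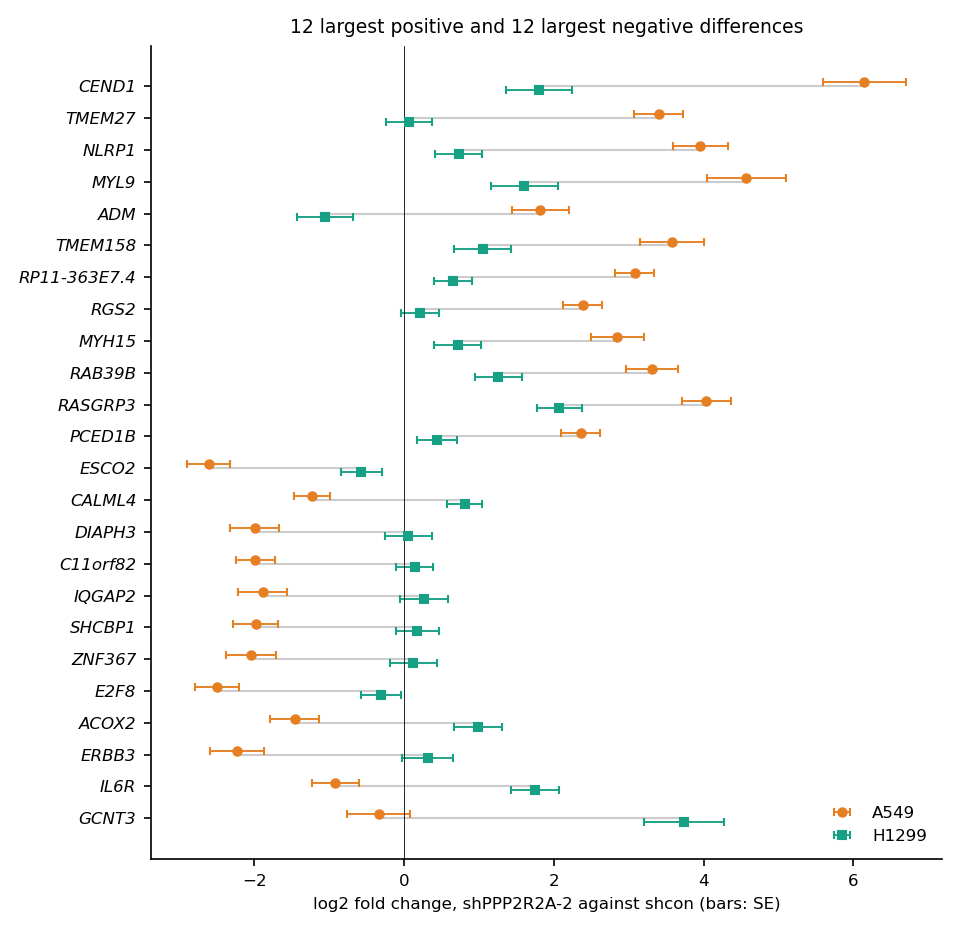
Log2 fold changes with shPPP2R2A-2 in A549 (circles) and H1299 (squares), with SE bars, for the 12 largest positive and 12 largest negative differences among genes with a mean of 100 counts or more in each line and no overlap of the changes. The A549 points lie to the right of the H1299 points for the 12 upper genes, from CEND1 to PCED1B, and to the left for the 12 lower ones, of which GCNT3 and IL6R move mainly in H1299.

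A few genes were counted well in 1 line and hardly in the other. BAAT, which conjugates bile acids, was at 13.05, 13.8 and 14.7 CPM in A549 shcon and 46.6, 29.6 and 19.9 CPM in A549 shPPP2R2A-2, and at 0.163, 0.095 and 0.345 CPM and 0.0349, 0.0519 and 0.0544 CPM in H1299. It rose in A549 without overlap, and the difference was 3.32 ± 0.70 (adjusted p = 0.041; 3.08 and adjusted p = 0.0974 without the library that held H1299 RNA). SLC13A3, a dicarboxylate transporter, and PRDM8, a PR domain factor, were at under 0.4 CPM in every A549 library and at 1.91 CPM or more in every H1299 library. Their differences of 4.71 and 1.90 rest on these low A549 values, and without the library that held H1299 RNA they were 4.63 and 1.96 and no longer passed (adjusted p = 0.0974 and 0.112). SVEP1, an extracellular matrix protein, had 0 counts in the 3 H1299 shcon libraries and 13, 5 and 2 counts in the H1299 shPPP2R2A-2 libraries, at least 7.48-fold higher against a floor of 3 counts over the control group, whereas in A549 it was at 3.305, 2.79 and 3.43 CPM and 2.34, 1.03 and 1.67 CPM. Its difference, which passed with all 12 libraries, did not pass without A549 shPPP2R2A-2 replicate 1 (adjusted p = 0.093).

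Listed genes of interferon and cGAS-STING signaling, the subject of the study's own measurements in knockdown cells, gave no difference past the threshold. Neither did the MHC class I list, whereas NLRP1, the inflammasome sensor above, passed and was in none of these lists. Since 1.07% of all genes tested passed, a count of 0 in lists of this size says little about the genes in them. Over all genes tested, 2328 of 18201 were at an unadjusted p under 0.05, 3.43% passed by DESeq2 and 25.9% by limma voom with quality weights. Of 36 interferon-stimulated genes 0 passed by edgeR, with 5 at an unadjusted p under 0.05 (3 higher, 2 lower), 2 higher by DESeq2 and 12 by limma voom with quality weights, and the median difference was -0.10, the same as over all genes. Of 21 genes of cGAS-STING and interferon signaling 0 passed, with 1 at an unadjusted p under 0.05, 0 by DESeq2 and 1 by voom, at a median of -0.26. Of 20 genes of MHC class I presentation 0 passed, with 4 at an unadjusted p under 0.05, 2 by DESeq2 and 8 by voom, at a median of 0.23. With 1 library left out these 3 medians ran from -0.20 to 0.06, from -0.31 to 0.02 and from 0.10 to 0.42, so that the first turned positive without A549 shcon replicate 2 or H1299 shcon replicate 1 and the second without A549 shPPP2R2A-2 replicate 1. Some single genes had been assayed by qPCR in the same work. MB21D1, which encodes the DNA sensor cGAS, was at 18.3, 14.6 and 15.4 CPM and 10.4, 9.100 and 9.61 CPM in A549, and at 45.9, 35.1 and 49.9 CPM and 30.1, 25.2 and 25.3 CPM in H1299. All knockdown libraries were below the controls in both lines, with a difference of -0.03 ± 0.26 (adjusted p = 1). IFIT2, an interferon-induced inhibitor of translation, gave -0.12 ± 0.49, and CD274, which encodes PD-L1, gave 0.23 ± 0.37, neither past the threshold (adjusted p = 0.984 and 0.848). MX1, an antiviral GTPase, was at 1.24 CPM or less in all libraries. CCL2, a monocyte chemokine, was at 12.5, 7.62 and 6.13 CPM in A549 shcon and 130.0, 139 and 112 CPM in A549 shPPP2R2A-2 and at 0 counts in the 6 H1299 libraries. It rose in A549 by 3.86 ± 0.30 (adjusted p = 6.73e-05), but no difference between the lines can be measured for it, nor for CCL5, which was also at 0 in H1299. CXCL10, IFNA1 and IFNB1 were below the filter on low counts.

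In all, 22 of the 38 gene lists other than cell type markers held no gene past the threshold by edgeR, with 79 of their 513 entries at an unadjusted p under 0.05, 17 past the threshold by DESeq2 and 173 by limma voom with quality weights. Over all genes tested, 1.07% passed by edgeR, 3.43% by DESeq2 and 25.9% by voom, and 2328 of 18201 were at an unadjusted p under 0.05. The 22 lists included NF-kB targets, chemokines and cytokines, immune checkpoint ligands, MHC class I genes, cholesterol synthesis, the unfolded protein response, TGF-beta and Wnt targets, and subunits of the respiratory chain. Their median differences ran from -0.51 for mucus and lung lineage genes to 0.74 for the MAGE family, a set of cancer-testis antigens of which 12 were measured. The first of these medians turned to 0.12 without A549 shcon replicate 2 and was -0.33 without H1299 shPPP2R2A-2 replicate 3, and that of the MAGE family was 0.47 without A549 shPPP2R2A-2 replicate 1.

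**Figure D5:**
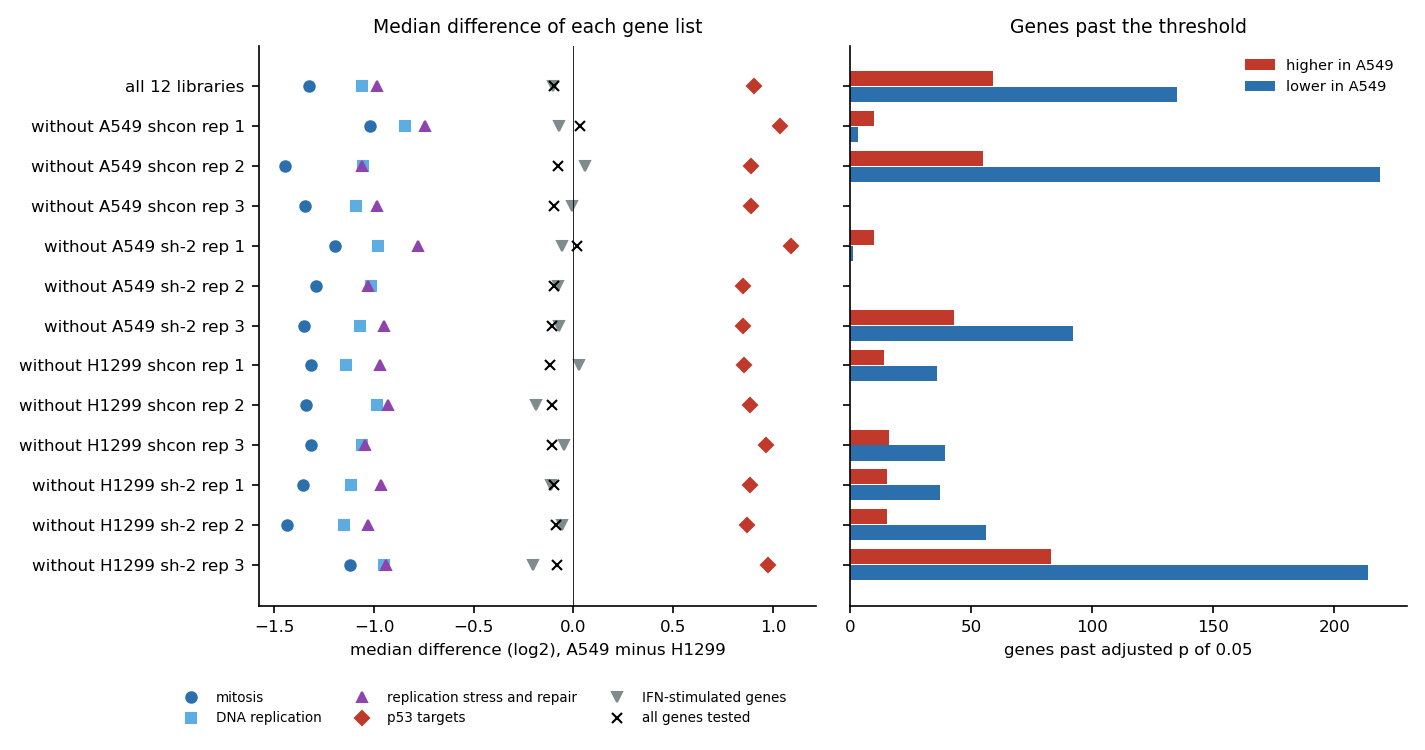
Left, the median difference (log2, A549 minus H1299) of 5 gene lists and of all genes tested with all 12 libraries and with each library left out in turn. Right, bars from 0 with the number of genes past the threshold in each fit, which runs from 0 to 83 higher and from 0 to 219 lower, while mitosis stays at or below -1.02 and p53 targets at or above 0.85.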

How the data were processed

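RNA of A549 and H1299 cells was made into stranded mRNA libraries and sequenced paired-end by the authors. The deposited table held whole-number counts per gene, which were used, and the authors' normalised values per library (a signal: counts divided by a size factor), which were not used in tests. The submitters' processing notes list STAR 2.7.3a and Bowtie2, HTSeq 0.11.2, Cufflinks 2.2.1, DESeq2, cutadapt 2.5 and FastQC 0.11.8, with build GRCh37 (hg19). Strand setting of the counting is not given in the sources used here, so overlapping genes may share reads. The number of other columns with per-sample values was 0.

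The 12 libraries were fitted in 1 model with a mean per group (edgeR 4.0.16 in R 4.3.3, TMM scaling, filterByExpr, robust quasi-likelihood), tested on simulated data beforehand. CPM are counts per 1000000 on the TMM-scaled library size. For the cell type and line markers and the search for RNA of the other line, they are per 1000000 counted reads without that scaling. Fold changes are log2 with SE, adjusted by Benjamini-Hochberg over 18201 genes, threshold 0.05. The range of 35743287 to 62337140 counts per library limits mainly genes of few counts. Alternatives were DESeq2 1.42.0, limma 3.58.1 (voom with quality weights), other scalings and filters, all 18 libraries, the replicate number as a block, and each library left out.

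The members and the 43 gene lists (916 of 993 genes measured) were chosen with earlier results of these data known. Named genes are PPP2R2A, the genes the study measured by qPCR, the 12 largest differences each way (mean of 100 counts in each line, no overlap of the 9 pairwise changes of each line), up to 6 genes that passed in opposite directions, up to 4 each way with 100 counts in 1 line and under 10 in the other, and up to 4 per list with the smallest adjusted p. Promoters matched by symbol or gene ID. A few genes that the rule names are not reported here.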

Additional observations from a re-analysis of the deposited data

Results flagged for a closer look

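The 2 lines differed in their response to shPPP2R2A-2 by the test of the difference itself at 59 genes higher in A549 and at 135 genes lower in A549. Without A549 shPPP2R2A-2 replicate 1, the library that held H1299 RNA, these counts were 10 and 1. Of the genes past the threshold with opposite directions in the lines, GALNT6 had a difference of -1.76, PYGB of 1.58 and PLK2 of 1.53. Groups of 3 libraries were not examined for single outlying values.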

How the results depend on the processing

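The number of calls moved with the processing. The 194 genes past the threshold kept their sign in all 20 alternatives, or 162 of 162 with a value where at least 10 counts were required in every library. They were picked on these same libraries and their pairwise changes did not overlap, so the kept signs do not test their direction. The 59 higher and 135 lower calls became 279 and 328 with DESeq2, 1796 and 2918 with limma voom and quality weights, which ranged from 0.299 to 4.75 between libraries, and 311 and 419 with no filter on low counts. Median-ratio size factors gave 88 lower calls and all 18 libraries in 1 model gave 65, of which 62 were among the 135. With 1 library left out, higher calls ran from 0 to 83 and lower calls from 0 to 219, calls in A549 from 1776 to 3993 and in H1299 from 97 to 667. The main counts in the lines, 3355 and 437, became 9206 and 2554 with voom, and 1117 with DESeq2 and 979 with no filter in H1299. The cause of these moves was not tested. Of the single named genes, 512 values with an alternative missed the threshold in the same direction and 690 kept their call. The PPP2R2A difference ran from -0.32 to 0.16 with 1 library left out and turned positive without A549 shcon replicate 1 or 3, A549 shPPP2R2A-2 replicate 1 or H1299 shcon replicate 2. MB21D1 turned positive at 0.058 with DESeq2, 0.060 with median-ratio size factors and 0.028 with at least 10 counts in every library, and ran from -0.14 to 0.21 with 1 library left out. IFIT2 ran from -0.42 to 0.13 and CD274 from -0.040 to 0.43 in the same fits. Where an arm kept 2 libraries, their spread was pooled with the other groups.

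With the replicate number as a block within each line, 1 gene was higher and 0 were lower by edgeR (1968 at an unadjusted p under 0.05), with 2421 calls in A549 and 97 in H1299. Whether the numbers pair the samples is not known. Deviations of libraries with the same number correlated at -0.09, 0.13 and 0.28 in A549 and at -0.13, 0.34 and -0.37 in H1299. With different numbers the correlations ran from -0.32 to 0.22 in A549 and from -0.41 to 0.39 in H1299. Groups of 3 libraries are too few for these values to decide it.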

Other observations

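Genes of the cytosolic ribosome had a small and even difference. All 47 measured ribosomal protein genes had a positive value, at a median of 0.57 against -0.10 over all genes, with medians of 0.27 in A549 and -0.32 in H1299. None passed the threshold by edgeR or DESeq2, 8 were at an unadjusted p under 0.05, and limma voom with quality weights called 40 higher. The median stayed between 0.32, without H1299 shcon replicate 1, and 0.79 under every alternative, scalings included, and at least 45 of the 47 were positive. Their median level varied within groups as well: it was 868, 1227 and 761 CPM in A549 shcon, 1341, 1216 and 1005 CPM in A549 shPPP2R2A-2, 1346, 905 and 849 CPM in H1299 shcon and 677, 724 and 1044 CPM in H1299 shPPP2R2A-2. The groups overlapped in both lines.

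Collagen genes had a median difference of 0.56 over 21 genes, of which 20 had a positive change in A549 and 15 in H1299. None passed the threshold by edgeR, with 4 at an unadjusted p under 0.05 and 2 by DESeq2. The fibroblast marker COL1A1 was at 5.74 to 7.39 CPM in A549 shcon and 25.9 to 30.2 CPM in A549 shPPP2R2A-2, while LUM was at 2.57 to 4.29 CPM and then 1.76 to 2.66 CPM in the same groups, and COL1A2, DCN and PDGFRA stayed at 1.02 CPM or less in every library.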
